A study of Mus musculus with 16 samples.

Results

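Transforming growth factor beta (TGF-beta) was followed here through the 10 mouse genes that encode its ligands, the latent TGF-beta binding proteins and its receptors. The 3 ligand genes were Tgfb1, Tgfb2 and Tgfb3. The 4 latent TGF-beta binding protein genes were Ltbp1, Ltbp2, Ltbp3 and Ltbp4. The 3 receptor genes were Tgfbr1, Tgfbr2 and Tgfbr3. They were chosen by gene symbol, each matched 1 row among the 57010 gene models of the deposited table, and all 10 passed the filter on low counts that left 14066 genes for testing.

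The study measured RNA in cardiomyocytes isolated from the hearts of C57BL/6 mice that received an adeno-associated virus of serotype 9 (AAV9). The virus was AAV9-PRODH, which carried proline dehydrogenase, the mitochondrial enzyme that starts proline breakdown, or AAV9-Vector, and the series text describes the overexpression as specific to the heart without naming the promoter. Sham surgery or transverse aortic constriction (TAC), which narrows the aortic arch and overloads the left ventricle with pressure, followed 3 weeks after injection, and cells were taken 4 weeks after surgery. The comparisons the study names are TAC with sham under AAV9-Vector, and AAV9-PRODH with AAV9-Vector after TAC. The 4 groups were AAV9-PRODH with TAC (PRODH TAC), AAV9-Vector with TAC (vector TAC), AAV9-PRODH with sham surgery (PRODH sham) and AAV9-Vector with sham surgery (vector sham), with 4 libraries each. All animals were labelled wild type and all received a virus, so no group is free of AAV9. Age and sex are not in the labels. Neither is it stated whether each library is a mouse of its own, and each p-value is therefore set against library-to-library spread, part of which could be technical.

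TGF-beta is secreted in an inactive form, in which the mature dimer stays wrapped in its own propeptide. Latent TGF-beta binding proteins other than Ltbp2 tether that complex to fibrillin and fibronectin in the extracellular matrix. Integrins, thrombospondin or proteases release the ligand. Released ligand binds the type II receptor Tgfbr2, which phosphorylates the type I receptor Tgfbr1, and Tgfbr1 in turn phosphorylates SMAD proteins that enter the nucleus. Tgfbr3, or betaglycan, is a co-receptor that presents ligand and is needed most for Tgfb2. In the pressure-overloaded heart the pathway is known for its part in fibroblast activation and scar formation.

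Total estimated counts ran from 15987580 to 22680212 per library. Counts from the mitochondrial genome took 34.5% to 36.6% of each of the 8 TAC libraries and 37.9% to 40.9% of each of the 8 sham libraries, so the share separated the surgeries. With those genes left out of the fit, 9 of the 10 genes were called in vector TAC against vector sham and 8 in PRODH TAC against vector TAC, the same counts as with them. In PRODH TAC against PRODH sham, 7 of the 10 were called without the mitochondrial genes and 6 with them. The labels do not give the species of the PRODH that the virus carries, so these counts of the mouse gene Prodh may or may not include its transcripts. Prodh averaged 13.6 ± 1.05 normalised CPM, that is counts scaled to a common library total, in PRODH TAC and 7.28 ± 1.18 CPM in vector TAC (SD, n = 4 each; log2 fold change 0.90 ± 0.10 SE, edgeR adjusted p = 2.19e-08). It averaged 13.8 ± 0.955 CPM in PRODH sham and 10.95 ± 0.454 CPM in vector sham, a difference that did not pass the test (0.33 ± 0.10, adjusted p = 0.0517). Prodh was lower in vector TAC than in vector sham (-0.58 ± 0.11, edgeR adjusted p = 2.58e-05). Between PRODH TAC and PRODH sham its difference did not pass (-0.02 ± 0.10, adjusted p = 0.904). The gap between the TAC groups thus includes a fall under AAV9-Vector. Vector TAC libraries 3 and 4 stood apart in the mitochondrial gene mt-Nd4, at 20080 and 22058 CPM where the lowest of the other 14 libraries had 25953, and results were also computed without them.

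Promoter sequence was at hand for 8 of the 10 genes in the RefSeq table of build GRCm38.p6, as 12 windows of 200 bases that end 51 bases before an annotated start. Shown are 5 of these windows: those of Ltbp2 and Tgfb2, the latent binding protein and the ligand whose values moved most, both windows of Ltbp1, which moved least of the called genes, and that of Tgfb1, the most abundant ligand. The Ltbp2 window lies at chr12:84876542-84876741 on the minus strand, the Tgfb2 window at chr1:186706040-186706239 on the minus strand, and the Tgfb1 window at chr7:25686752-25686951 on the plus strand. The Ltbp1 windows lie on the plus strand at chr17:75005279-75005478 (a) and chr17:75178531-75178730 (b). Letters run 5′ to 3′ along the gene, and capitals mark CAGAC on either strand, the core that SMAD proteins bind.
Ltbp2: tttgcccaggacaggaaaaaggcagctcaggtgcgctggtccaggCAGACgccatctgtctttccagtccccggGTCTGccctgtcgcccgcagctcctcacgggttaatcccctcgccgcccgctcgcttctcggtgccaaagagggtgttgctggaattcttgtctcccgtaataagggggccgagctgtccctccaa
Tgfb2: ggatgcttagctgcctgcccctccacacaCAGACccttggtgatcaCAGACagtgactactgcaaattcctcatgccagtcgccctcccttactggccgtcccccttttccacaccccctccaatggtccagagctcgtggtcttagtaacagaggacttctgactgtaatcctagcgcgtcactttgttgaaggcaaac
Ltbp1 a: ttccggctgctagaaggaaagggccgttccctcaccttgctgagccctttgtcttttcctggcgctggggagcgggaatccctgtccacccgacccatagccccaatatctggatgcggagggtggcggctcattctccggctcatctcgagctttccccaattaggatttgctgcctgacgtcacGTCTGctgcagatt
Ltbp1 b: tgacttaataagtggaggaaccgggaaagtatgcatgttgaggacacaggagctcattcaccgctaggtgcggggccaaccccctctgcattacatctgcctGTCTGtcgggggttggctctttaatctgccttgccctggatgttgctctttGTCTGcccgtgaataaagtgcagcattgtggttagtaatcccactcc
Tgfb1: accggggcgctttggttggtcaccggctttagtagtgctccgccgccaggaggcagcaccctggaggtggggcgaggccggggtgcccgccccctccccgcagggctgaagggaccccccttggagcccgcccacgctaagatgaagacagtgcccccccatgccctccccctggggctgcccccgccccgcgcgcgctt
The Ltbp2 window held the letters at 205 and 176 bases before the start, and the Tgfb2 window at 221 and 204 bases. The Ltbp1 windows held them as well, at 64 bases in one and at 148 and 97 bases in the other, and the Tgfb1 window held none. Over the genes' windows, 7 of 12 contained CAGAC on either strand, against 35.8% of all 32851 windows of this length. The GC box, GGGCGG on either strand, was in 6 of 12 windows, against 24.6% of all windows. The AP-1 site TGANTCA was in 0 of 12 windows (5.57% of all) and the TEAD site GGAATG in 0 of 12 (10.7% of all). Windows of 1 gene can overlap, as those of Ltbp4 do, and a match of letters is a description of these windows only. The Ltbp2 window lies within an exon of an annotated antisense gene, D030025P21Rik, which had 7.07 estimated counts over all libraries, and 117 bases of the Tgfb2 window lie in annotated exons of another gene.

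**Figure D1:**
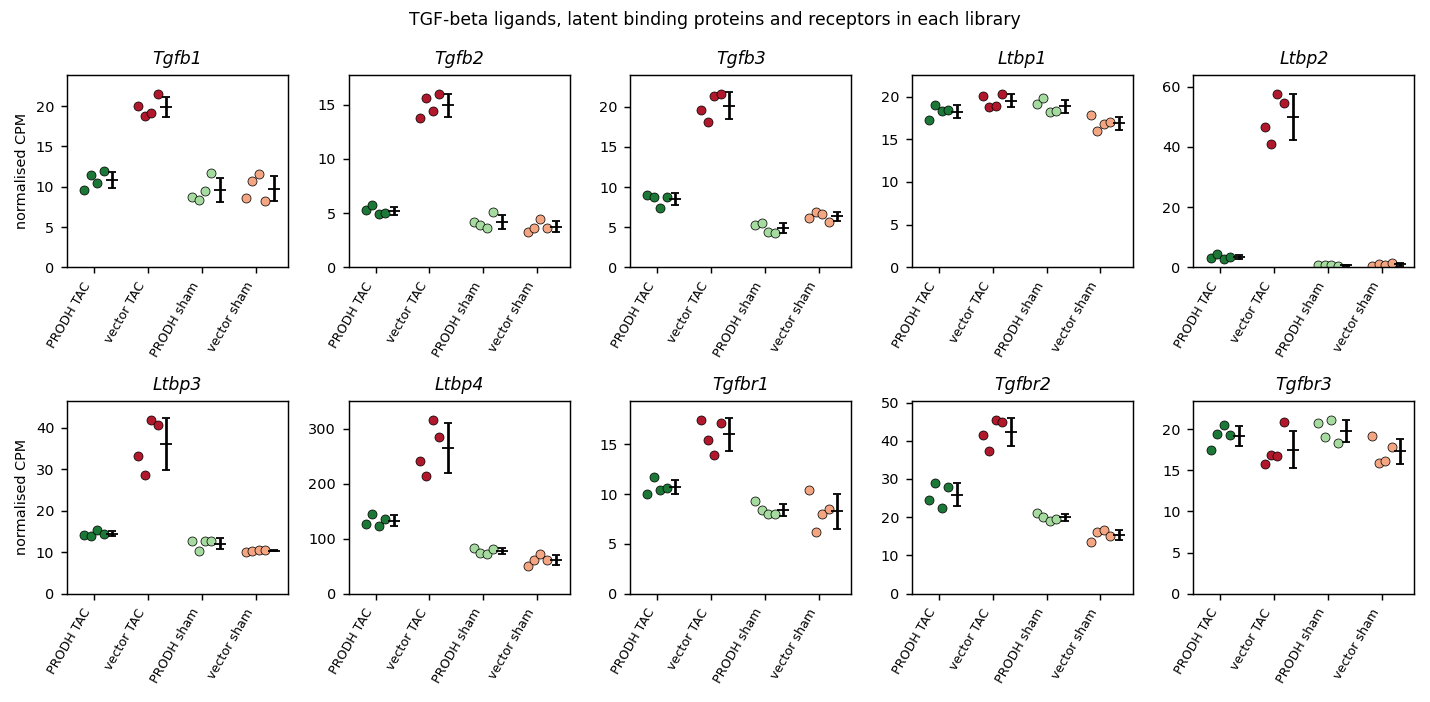
Normalised CPM (vertical axes, each from 0) of the 10 genes in each of the 16 libraries, by group, with 1 point per library and the mean ± SD beside it. In 8 of the 10 panels every vector TAC point lies above all points of the other groups; Ltbp1 and Tgfbr3 are the exceptions.

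Under AAV9-Vector, 9 of the 10 genes rose with TAC: all 3 ligands, all 4 latent binding proteins and the receptors Tgfbr1 and Tgfbr2. Only Tgfbr3 did not pass the test. Log2 fold changes ran from 0.02 for Tgfbr3 to 5.58 for Ltbp2, with a median of 1.56 over the 10 genes and 0.02 over all genes tested. In this comparison 30.3% of all genes tested were called higher and 26.2% lower (edgeR's quasi-likelihood test, adjusted p under 0.05). In those 9 genes every vector TAC library was above every vector sham library, an order that held for 26.1% of all genes.

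After TAC, 8 of the 10 genes were lower with AAV9-PRODH than with AAV9-Vector: the 3 ligands, Ltbp2, Ltbp3, Ltbp4, Tgfbr1 and Tgfbr2. Ltbp1 and Tgfbr3 did not pass the test. The median log2 fold change of the 10 genes was -0.93, against -0.04 over all genes. Here 18.5% of genes tested were called higher and 24.6% lower. The PRODH TAC libraries lay below all vector TAC libraries in the same 8 genes, an order that held for 22.6% of all genes. Both comparisons use the vector TAC libraries, so their values are given gene by gene.

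The labels name cardiomyocytes, and the 10 cardiomyocyte markers on the marker list summed to 33410 to 36835 CPM per library in PRODH TAC and 30130 to 31600 in vector TAC, with 42767 to 46793 in PRODH sham and 43543 to 47852 in vector sham. Markers of other cell types were present in every library and moved with the TGF-beta genes. Beside the marker counts, 30.3% of all genes tested were called higher and 26.2% lower in vector TAC against vector sham. The shares were 18.5% and 24.6% in PRODH TAC against vector TAC. All 12 fibroblast markers rose in vector TAC against vector sham (median 2.03) and all 12 fell in PRODH TAC against vector TAC (median -1.33). They summed to 496 to 629 CPM in PRODH TAC and 1580 to 1812 in vector TAC, with 406 to 431 in PRODH sham and 269 to 429 in vector sham, and none was at 0 in any library. Of 10 endothelial markers, 10 rose in the first of these comparisons (median 1.02) and 10 fell in the second (median -0.45), and they summed to 515 to 600 CPM in PRODH TAC and 632 to 840 in vector TAC, with 362 to 395 in PRODH sham and 346 to 433 in vector sham. Of 10 myeloid markers, 10 rose in the first and 9 fell in the second, and they summed to 207 to 257 CPM in PRODH TAC and 369 to 397 in vector TAC, with 195 to 236 in PRODH sham and 125 to 200 in vector sham. Of 10 mural markers, 8 rose and 1 fell in the first, 1 rose and 5 fell in the second, and they summed to 408 to 475 CPM in PRODH TAC and 476 to 525 in vector TAC, with 324 to 338 in PRODH sham and 321 to 354 in vector sham. Of the 4 red cell and platelet markers tested, 4 rose in the first and 4 fell in the second, and the list of 7 summed to 67.6 to 76.2 CPM in PRODH TAC and 142 to 189 in vector TAC, with 43.3 to 59.9 in PRODH sham and 65.3 to 119 in vector sham. Of 4 glial and mesothelial markers tested, 2 rose in the first and 2 fell in the second, and the list of 6 summed to at most 14.2 CPM in any library. None of the 6 lymphoid markers passed the count filter, and they summed to at most 2.28 CPM. Gp9 (platelets) was at 0 in 9 libraries, Cd3d in 4 and Nkg7 in 3, and Cd3e, Ms4a1, Cd8a, Ppbp and Itga2b in 1 each. Of the 10 cardiomyocyte markers, 9 fell and 0 rose in the first comparison, and 5 rose and 1 fell in the second. In these bulk libraries, fewer cells of a type and less RNA per cell cannot be told apart. The part of these cell types in the values of the 10 genes was not tested. Dcn, Col1a1 and Col1a2 stand on both the fibroblast and a pathway list, as Acta2 and Tagln do for mural cells.

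Among the ligands, Tgfb2 moved most in both comparisons. Tgfb2, the isoform with the strongest need for betaglycan, had 5.31, 5.70, 4.87 and 4.999 CPM in PRODH TAC, against 13.7, 15.6, 14.4 and 15.99 CPM in vector TAC. It had 4.20, 3.92, 3.61 and 5.06 CPM in PRODH sham, against 3.27, 3.65, 4.47 and 3.65 CPM in vector sham. All vector TAC libraries were above 13 CPM and none of the other 12 reached 6 CPM. The fitted log2 change was -1.51 ± 0.10 (SE, edgeR adjusted p = 7.15e-13) for PRODH TAC against vector TAC and 1.98 ± 0.11 (adjusted p = 6.05e-15) for vector TAC against vector sham.

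Tgfb3, an isoform known from palate and valve development, followed the same order among the TAC groups. It had 9.05, 8.80, 7.35 and 8.74 CPM in PRODH TAC, against 19.6, 18.1, 21.3 and 21.6 CPM in vector TAC. It had 5.25, 5.54, 4.36 and 4.34 CPM in PRODH sham, against 6.12, 6.95, 6.70 and 5.61 CPM in vector sham. Unlike Tgfb2, its PRODH TAC libraries stood clear of both sham groups, and its PRODH sham libraries lay just below the vector sham libraries without passing the test (-0.38 ± 0.12, adjusted p = 0.0677). In the fit, the log2 fold change was -1.25 ± 0.10 (adjusted p = 7.36e-12) for PRODH TAC against vector TAC and 1.66 ± 0.10 (adjusted p = 2.66e-14) for vector TAC against vector sham. Without vector sham library 4 the sham difference passed (-0.45, adjusted p = 0.0453).

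Tgfb1, the isoform most studied in fibrosis and in immune tolerance, had 9.65, 11.4, 10.4 and 11.9 CPM in PRODH TAC, against 19.99, 18.8, 19.1 and 21.5 CPM in vector TAC. It had 8.70, 8.35, 9.46 and 11.7 CPM in PRODH sham, against 8.61, 10.7, 11.5 and 8.25 CPM in vector sham. The PRODH TAC libraries overlapped both sham groups, and only the vector TAC libraries stood apart. By edgeR, the log2 fold change was -0.87 ± 0.10 (adjusted p = 5.56e-08) for PRODH TAC against vector TAC and 1.02 ± 0.11 (adjusted p = 2.79e-09) for vector TAC against vector sham.

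Of the latent binding proteins, Ltbp2 differed most between groups. Ltbp2 binds fibrillin and, unlike its relatives, does not bind latent TGF-beta. It had 3.18, 4.38, 2.88 and 3.42 CPM in PRODH TAC, against 46.5, 40.9, 57.6 and 54.4 CPM in vector TAC. It had 0.642, 0.748, 0.745 and 0.525 CPM in PRODH sham, against 0.498, 1.22, 0.906 and 1.38 CPM in vector sham. These levels rested on 71 to 106 counts per library in PRODH TAC and 786 to 1099 in vector TAC, with 8 to 13 in PRODH sham and 7 to 26 in vector sham, so the sham levels are the least precise of the 10 genes. Both TAC groups stood clear of both sham groups and of each other. The log2 fold change was 5.58 ± 0.16 (adjusted p = 1.06e-20) for vector TAC against vector sham, a 47.8-fold difference and rank 9 from the top of 14066 genes. It was -3.84 ± 0.13 (adjusted p = 4.02e-19) for PRODH TAC against vector TAC, a 14.4-fold lower level and rank 15 from the bottom.

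Ltbp4, which takes part in elastic fibre assembly and binds mainly latent Tgfb1, was the most abundant of the 10 genes. It had 126, 145, 124 and 137 CPM in PRODH TAC, against 242, 213, 316 and 286 CPM in vector TAC. It had 83.5, 73.2, 72.4 and 81.0 CPM in PRODH sham, against 49.5, 61.7, 71.8 and 61.2 CPM in vector sham. The 4 groups did not overlap at any step, from vector TAC down through PRODH TAC and PRODH sham to vector sham. The fitted log2 change was -0.99 ± 0.11 (adjusted p = 1.52e-07) for PRODH TAC against vector TAC and 2.11 ± 0.11 (adjusted p = 5.67e-13) for vector TAC against vector sham. Between the sham groups it was 0.34 ± 0.11 and did not pass (adjusted p = 0.0858).

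Ltbp3, which helps to fold and secrete latent TGF-beta, had 14.2, 13.9, 15.4 and 14.4 CPM in PRODH TAC, against 33.1, 28.5, 41.8 and 40.6 CPM in vector TAC. It had 12.6, 10.2, 12.8 and 12.7 CPM in PRODH sham, against 10.1, 10.3, 10.5 and 10.4 CPM in vector sham. The vector TAC libraries stood well above all others, while the remaining groups lay close together. In the fit, the log2 fold change was -1.31 ± 0.10 (adjusted p = 2.85e-12) for PRODH TAC against vector TAC and 1.80 ± 0.10 (adjusted p = 4.54e-15) for vector TAC against vector sham.

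Ltbp1, which anchors the latent complex to fibronectin and fibrillin, barely differed. It had 17.3, 19.0, 18.4 and 18.4 CPM in PRODH TAC, against 20.1, 18.8, 18.9 and 20.3 CPM in vector TAC. It had 19.1, 19.8, 18.2 and 18.3 CPM in PRODH sham, against 17.8, 15.9, 16.8 and 17.0 CPM in vector sham. The vector sham libraries lay below all libraries of vector TAC and PRODH sham and overlapped those of PRODH TAC. The log2 fold change of 0.21 ± 0.08 for vector TAC against vector sham passed (adjusted p = 0.0161), and that for PRODH TAC against vector TAC did not (-0.10 ± 0.07, adjusted p = 0.280). The first call was lost without vector sham library 2 (adjusted p = 0.0663), without vector TAC libraries 3 and 4 together (adjusted p = 0.0603), with no filter on low counts (adjusted p = 0.0848) and with only both vector groups in the fit (adjusted p = 0.0519).

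Among the receptors, Tgfbr2 moved most and Tgfbr3 least in both comparisons. Tgfbr2, the type II receptor that binds ligand, had 24.5, 28.9, 22.3 and 28.0 CPM in PRODH TAC, against 41.5, 37.3, 45.4 and 44.8 CPM in vector TAC. It had 21.2, 19.9, 19.0 and 19.6 CPM in PRODH sham, against 13.6, 16.2, 16.5 and 14.97 CPM in vector sham. As for Ltbp4, no pair of neighbouring groups overlapped. By edgeR, the log2 fold change was -0.70 ± 0.08 (adjusted p = 6.37e-08) for PRODH TAC against vector TAC and 1.46 ± 0.09 (adjusted p = 2.31e-14) for vector TAC against vector sham.

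Tgfbr1, the type I receptor kinase, had 10.1, 11.7, 10.4 and 10.7 CPM in PRODH TAC, against 17.4, 15.5, 13.9 and 17.2 CPM in vector TAC. It had 9.28, 8.41, 7.97 and 8.01 CPM in PRODH sham, against 10.5, 6.19, 7.97 and 8.52 CPM in vector sham. The vector sham libraries were spread widely and reached into the PRODH TAC range, and the vector TAC libraries lay above both. The log2 fold change was -0.58 ± 0.11 (adjusted p = 5.78e-05) for PRODH TAC against vector TAC and 0.97 ± 0.11 (adjusted p = 2.11e-08) for vector TAC against vector sham.

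Tgfbr3 had 17.5, 19.4, 20.5 and 19.3 CPM in PRODH TAC, against 15.7, 16.8, 16.7 and 20.8 CPM in vector TAC. It had 20.7, 19.1, 21.1 and 18.3 CPM in PRODH sham, against 19.2, 15.9, 16.1 and 17.9 CPM in vector sham. All 4 groups overlapped. The fitted log2 change was 0.13 ± 0.09 (adjusted p = 0.236) for PRODH TAC against vector TAC and 0.02 ± 0.09 (adjusted p = 0.872) for vector TAC against vector sham. Without vector TAC library 4, the highest of its group, the PRODH TAC difference passed (0.22, adjusted p = 0.0485).

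Scaling by library totals alone, in place of TMM, moved the median of all genes to 0.37 for vector TAC against vector sham and to 0.40 for PRODH TAC against PRODH sham. Called genes were then 86.2% higher in the first comparison, against 53.6% with TMM, and 96.2% higher in the second, against 49.2%. Under that scaling 53.1% of all genes tested were called higher in the first comparison and 56.0% in the second, as were all 10 genes in both, Tgfbr3 by 0.37 and Ltbp1 by 0.57 in vector TAC against vector sham, where the shift of all genes was 0.37. In PRODH TAC against PRODH sham the log2 fold change was then 0.70 for Tgfb2, 0.73 for Tgfbr1 and 0.76 for Tgfbr2, where the shift of all genes was 0.40. The same 8 genes were called lower in PRODH TAC than in vector TAC under either scaling, with 20.2% of all genes called lower under library totals alone.

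**Figure D2:**
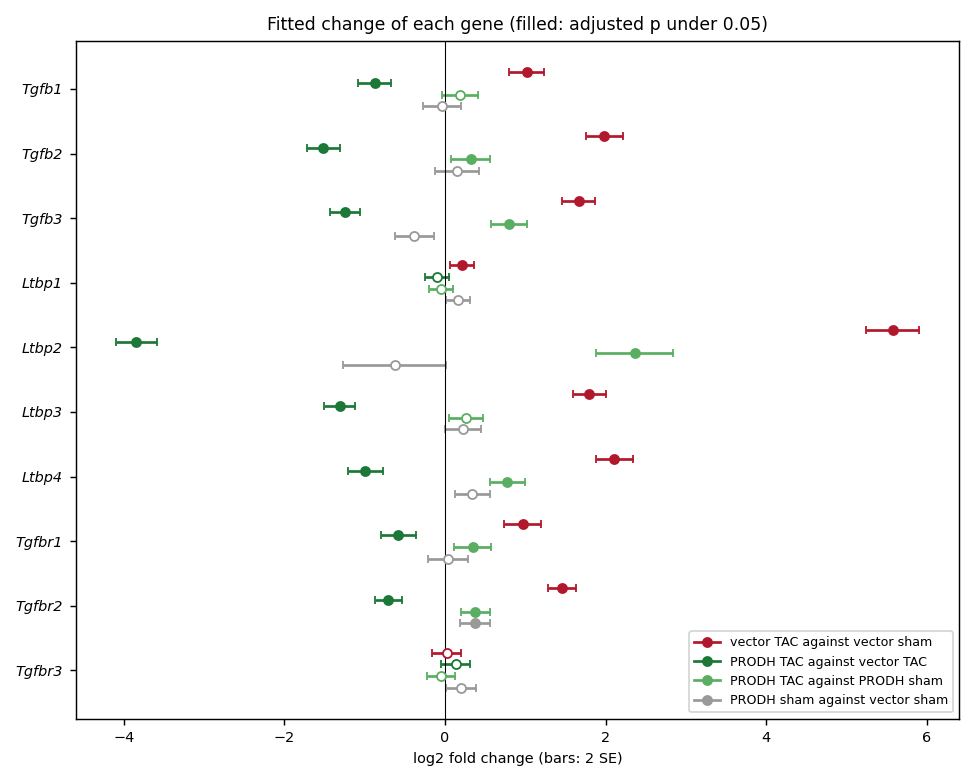
Fitted log2 fold change (horizontal axis) of each gene in the 4 pairwise comparisons, with bars of 2 SE and filled points where the adjusted p was under 0.05. Ltbp2 lies farthest from 0 in both directions, at 5.58 for vector TAC against vector sham and -3.84 for PRODH TAC against vector TAC, and Tgfbr3 has no filled point.

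Within AAV9-PRODH, 6 of the 10 genes rose with TAC: Tgfb2, Tgfb3, Ltbp2, Ltbp4, Tgfbr1 and Tgfbr2. The median log2 fold change was 0.33, against 0.02 over all genes, where 17.2% of genes tested were called higher and 17.8% lower. Ltbp2 differed most (2.36 ± 0.24, adjusted p = 2.12e-08), followed by Tgfb3 (0.80 ± 0.11, adjusted p = 2.87e-06) and Ltbp4 (0.78 ± 0.11, adjusted p = 1.09e-05). Tgfbr2 (0.38 ± 0.09, adjusted p = 0.00130) and Tgfbr1 (0.35 ± 0.12, adjusted p = 0.0193) rose less. Tgfb2 passed narrowly (0.32 ± 0.12, adjusted p = 0.0441) with overlapping groups, and Ltbp3 missed narrowly (0.26 ± 0.10, adjusted p = 0.0521) although its groups did not overlap. Tgfb1 (0.19 ± 0.11, adjusted p = 0.203), Ltbp1 (-0.05 ± 0.07, adjusted p = 0.667) and Tgfbr3 (-0.05 ± 0.09, adjusted p = 0.718) did not pass. The calls near the threshold depended on single libraries. That of Tgfb2 was lost without PRODH sham library 2 (adjusted p = 0.0774) or 3 (adjusted p = 0.112) and without PRODH TAC library 1 (adjusted p = 0.0831) or 2 (adjusted p = 0.126). That of Tgfbr1 was lost without PRODH TAC library 2 (adjusted p = 0.0697). Tgfb1 passed without PRODH sham library 4 (0.33, adjusted p = 0.0296), and Ltbp3 passed in 10 of the 16 fits that left out 1 library. Markers of some other cell types were also higher in PRODH TAC than in PRODH sham. Called higher were 9 of 12 fibroblast, 9 of 10 endothelial, 9 of 10 mural and 2 of 4 red cell and platelet markers. Of myeloid markers 1 of 10 was called higher, and of glial and mesothelial markers 0 of 4 (median -0.24), against 17.2% of all genes. Of 10 cardiomyocyte markers, 6 were called lower and 1 higher. The part of these cell types in the values of the 10 genes was not tested here either.

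In sham hearts 1 of the 10 genes differed between viruses. Tgfbr2 was higher in PRODH sham than in vector sham (0.37 ± 0.09, adjusted p = 0.0126), where 2.81% of genes tested were called higher and 2.20% lower. The call was lost without PRODH sham library 1 (adjusted p = 0.0576), vector sham library 1 (adjusted p = 0.0671) or vector sham library 4 (adjusted p = 0.0535). Ltbp4 passed without vector sham library 3 (0.43, adjusted p = 0.0256) and in several other settings. The groups did not overlap in Ltbp1, Ltbp4 and Tgfbr2, higher in PRODH sham, and in Tgfb3, lower there, orders that held for 5.25% and 5.17% of all genes. Ltbp2, at 0.665 ± 0.105 CPM in PRODH sham and 0.999 ± 0.387 CPM in vector sham (SD, n = 4 each), did not pass (-0.63 ± 0.32, adjusted p = 0.339). In the same comparison 5 of 10 myeloid markers were called higher (median 0.43), 3 of 4 red cell and platelet markers lower (median -0.95) and 2 of 10 mural markers lower, and of 10 endothelial markers 1 was called higher and 1 lower. No fibroblast or cardiomyocyte marker was called, with medians of 0.21 and -0.0044. The part of these markers in the Tgfbr2 value was not tested.

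The size of the TAC difference was compared between viruses by the interaction term, the TAC change under AAV9-PRODH minus that under AAV9-Vector. It was below 0 and passed for 8 of the 10 genes, where 15.8% of all genes were called below 0 and 10.9% above. Ltbp2 had the largest term (-3.22 ± 0.39, adjusted p = 5.46e-07), followed by Tgfb2 (-1.66 ± 0.17, adjusted p = 1.59e-08), Ltbp3 (-1.54 ± 0.15, adjusted p = 4.32e-09) and Ltbp4 (-1.33 ± 0.15, adjusted p = 1.22e-06). Among the receptors it was -1.08 ± 0.13 for Tgfbr2 (adjusted p = 1.49e-07) and -0.62 ± 0.16 for Tgfbr1 (adjusted p = 0.00518). It did not pass for Ltbp1 (-0.26 ± 0.11, adjusted p = 0.0652) or Tgfbr3 (-0.07 ± 0.13, adjusted p = 0.738). Ltbp1 passed without vector TAC library 2 (adjusted p = 0.0468).

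Levels per length, CPM divided by the kilobases of the deposited gene length, allowed the genes to be ordered within a group. Ltbp4 stood first and Tgfb1 next in every group, and neither overlapped its neighbour below. Ltbp4 averaged 24.7 ± 1.83 CPM per kilobase in PRODH TAC and 49.0 ± 8.44 in vector TAC, with 14.4 ± 1.03 in PRODH sham and 11.3 ± 1.70 in vector sham (SD, n = 4 each). Tgfb1 averaged 4.99 ± 0.465 CPM per kilobase in PRODH TAC and 9.13 ± 0.556 in vector TAC, with 4.39 ± 0.691 in PRODH sham and 4.49 ± 0.733 in vector sham. Ltbp2 was last in 3 groups, at 0.512 ± 0.0956 CPM per kilobase in PRODH TAC, 0.0982 ± 0.0155 in PRODH sham and 0.148 ± 0.0572 in vector sham. In vector TAC it was the third, at 7.36 ± 1.12 CPM per kilobase, and its libraries overlapped those of Ltbp3 next to it. Also overlapping in vector TAC were Ltbp3 and Tgfb3, Tgfb3 and Tgfbr2, Ltbp1 and Tgfbr3, and Tgfbr3 and Tgfbr1, which was last at 2.78 ± 0.287 CPM per kilobase. In PRODH TAC the neighbours from Tgfbr2 through Tgfbr3 and Ltbp1 to Ltbp3 overlapped. In both sham groups Tgfbr3 was the third and overlapped Ltbp1 below it, and Tgfb2 stood above Ltbp2 alone. Between them, the neighbours from Ltbp3 through Tgfbr2, Tgfb3 and Tgfbr1 to Tgfb2 overlapped in vector sham, and in PRODH sham Tgfbr2 overlapped Ltbp3, and Tgfbr1, Tgfb3 and Tgfb2 overlapped in turn.

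Summed over each set, the ligands reached 8.99 ± 0.586 CPM per kilobase in PRODH TAC and 19.4 ± 1.05 in vector TAC, with 7.03 ± 0.718 in PRODH sham and 7.45 ± 1.00 in vector sham (SD, n = 4 each). The latent binding proteins reached 30.9 ± 1.92 CPM per kilobase in PRODH TAC and 66.5 ± 10.8 in vector TAC, with 19.8 ± 1.12 in PRODH sham and 16.2 ± 1.69 in vector sham. The receptors reached 8.21 ± 0.521 CPM per kilobase in PRODH TAC and 10.9 ± 0.781 in vector TAC, with 7.18 ± 0.346 in PRODH sham and 6.17 ± 0.397 in vector sham. Every set was highest in vector TAC, and the libraries of vector TAC overlapped no other group in any of the 3 sums. Shares of these sums show how the make-up of each set differed. Among ligands, Tgfb1 took 55.4% ± 2.86 in PRODH TAC and 47.1% ± 1.18 in vector TAC, with 62.2% ± 4.14 in PRODH sham and 60.2% ± 1.72 in vector sham (SD, n = 4 each). Tgfb2 took 16.7% ± 1.10 in PRODH TAC and 22.1% ± 1.47 in vector TAC, with 17.1% ± 1.10 in PRODH sham and 14.5% ± 1.31 in vector sham. Tgfb1 was thus the leading ligand throughout, with its lowest share in vector TAC, and the vector TAC libraries overlapped no other group in the share of either gene. Among latent binding proteins, Ltbp2 took 1.65% ± 0.208 in PRODH TAC and 11.1% ± 0.137 in vector TAC, with 0.499% ± 0.102 in PRODH sham and 0.905% ± 0.334 in vector sham. Ltbp1 took 9.49% ± 0.385 in PRODH TAC and 4.80% ± 0.757 in vector TAC, with 15.3% ± 1.16 in PRODH sham and 16.9% ± 2.40 in vector sham. Among receptors, Tgfbr2 took 38.9% ± 2.81 in PRODH TAC and 48.0% ± 2.87 in vector TAC, with 34.3% ± 1.23 in PRODH sham and 30.9% ± 4.47 in vector sham. Tgfbr3 took 38.4% ± 2.72 in PRODH TAC and 26.4% ± 2.04 in vector TAC, with 45.3% ± 1.91 in PRODH sham and 46.0% ± 1.70 in vector sham. The co-receptor led the receptors in both sham groups and the type II receptor led in vector TAC.

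**Figure D3:**
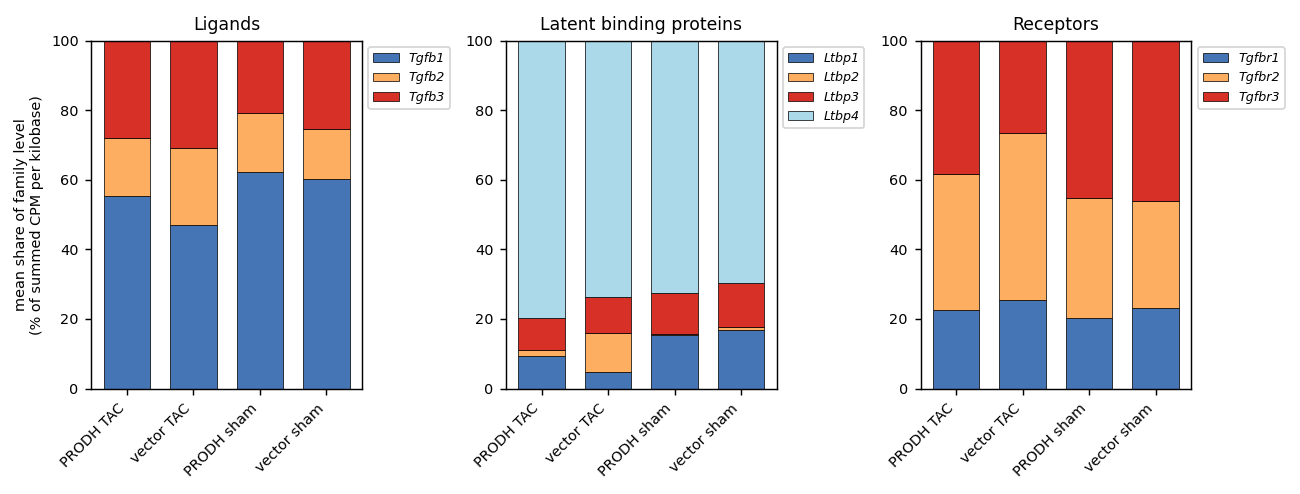
Mean share of each gene (vertical axis, percent of the summed CPM per kilobase of its set, n = 4 libraries per bar) among ligands, latent binding proteins and receptors in the 4 groups. In vector TAC the Ltbp2 segment is 11.1% where it is at most 1.65% in the other groups, and the Tgfbr2 segment is 48.0%.

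For each of the 10 genes, the genes of most similar pattern were found over all 16 libraries, by the root mean square difference of log2 CPM after centring each gene, among 8035 genes with a mean of at least 5 CPM. Ltbp2 was least closely matched, with Cilp, a cartilage matrix protein (0.42), Thbs4, a thrombospondin (0.43), and Myh7, the myosin heavy chain of the fetal and stressed ventricle (0.58). Cilp had log2 fold changes of -3.32 ± 0.10 for PRODH TAC against vector TAC and 5.62 ± 0.13 for vector TAC against vector sham. Closest to Tgfb2 were Efhd2 (0.10), Pcolce and Igfbp4 (0.13 each), and closest to Ltbp4 were Axl (0.09), Tnxb (0.13) and Vim (0.14). Efhd2 had log2 fold changes of -1.52 ± 0.09 and 2.01 ± 0.10 in these comparisons. Closest to Tgfb1 were Rpl3, Tnfrsf1a and Plp2, to Tgfb3 Rhoj, Dpysl3 and Rcan1, and to Ltbp3 Fgfr1, Creb3l2 and Timp2. Closest to Tgfbr1 were Spred1, Lama2 and Pabpc1, and to Tgfbr2 Aqp1, Slc6a6 and Thbd. The little-changed Ltbp1 was matched by Jam2, Rcsd1 and Dsp, and Tgfbr3 by Safb, Dcaf8 and Tfdp2. These genes were picked for their pattern over the same 16 libraries, so their fold changes are a description with no test.

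The genes around these 10 were counted on lists of the pathway. For comparison with every list, 30.3% of all genes tested were called higher and 26.2% lower in vector TAC against vector sham. In PRODH TAC against vector TAC these shares were 18.5% and 24.6%. The first list, called activators here, held genes tied to the activation of latent TGF-beta. Not all of them release the ligand, and Lrrc32, Nrros and Furin were counted with the rest. Most had higher RNA in vector TAC than in vector sham: 13 of 15 tested rose and 1 fell. The median log2 fold change was 1.14. In PRODH TAC against vector TAC 10 fell and 1 rose, with a median of -0.68. Thbs1, a thrombospondin that can release the ligand from its propeptide, averaged 6.77 ± 1.30 CPM in PRODH TAC and 44.9 ± 4.65 CPM in vector TAC, with 2.51 ± 0.261 CPM in PRODH sham and 5.20 ± 1.18 CPM in vector sham (SD, n = 4 each). Its log2 fold change was -2.73 ± 0.12 (adjusted p = 9.75e-17) for PRODH TAC against vector TAC and 3.12 ± 0.13 (adjusted p = 1.38e-17) for vector TAC against vector sham. The matrix protease Mmp2 had log2 fold changes of -1.93 ± 0.10 (adjusted p = 5.92e-14) and 3.59 ± 0.12 (adjusted p = 1.19e-18) in these comparisons, and the membrane protease Mmp14 rose by 2.49 ± 0.12 in vector TAC (adjusted p = 8.09e-17). Itgb6, the beta subunit of an integrin that pulls latent TGF-beta open on epithelia, went the other way. It averaged 10.1 ± 0.661 CPM in PRODH TAC and 4.16 ± 0.298 CPM in vector TAC, with 8.23 ± 0.578 CPM in PRODH sham and 13.2 ± 1.41 CPM in vector sham. Its log2 fold change was 1.27 ± 0.11 (adjusted p = 3.97e-11) for PRODH TAC against vector TAC and -1.66 ± 0.11 (adjusted p = 5.15e-14) for vector TAC against vector sham.

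All 11 matrix partners of the latent complex and of TGF-beta rose in vector TAC against vector sham (median 2.57) and all 11 fell in PRODH TAC against vector TAC (median -1.76). Eln, elastin, averaged 15.6 ± 1.85 CPM in PRODH TAC and 71.8 ± 5.93 CPM in vector TAC, with 6.07 ± 0.698 CPM in PRODH sham and 7.77 ± 1.08 CPM in vector sham. Fbn1, the fibrillin to which latent binding proteins attach, averaged 35.9 ± 3.91 CPM in PRODH TAC and 108 ± 14.5 CPM in vector TAC, with 12.2 ± 0.146 CPM in PRODH sham and 18.2 ± 2.63 CPM in vector sham. Fmod, the TGF-beta-binding proteoglycan fibromodulin, averaged 1.83 ± 0.593 CPM in PRODH TAC and 29.2 ± 3.67 CPM in vector TAC (log2 fold change -3.99 ± 0.15, adjusted p = 6.22e-18). The proteoglycan Bgn and the fibrillin-binding Adamtsl2 rose by 3.28 ± 0.10 (adjusted p = 1.40e-20) and 3.47 ± 0.13 (adjusted p = 1.19e-18) in vector TAC against vector sham.

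The SMADs and adaptors that carry the signal stayed close to 0. Of 9 tested, 1 rose and 1 fell in vector TAC against vector sham (median -0.01), and 3 rose and 1 fell in PRODH TAC against vector TAC (median 0.08). The shares over all genes were 30.3% higher and 26.2% lower in the first comparison, and 18.5% and 24.6% in the second. Tab1, a partner of the kinase Map3k7, had a log2 fold change of -0.34 ± 0.11 (adjusted p = 0.00777) and Tgfbrap1, a receptor-associated protein, one of 0.25 ± 0.10 (adjusted p = 0.0392) in vector TAC against vector sham. Smad4, the common partner of receptor-activated SMADs, averaged 17.0 ± 0.582 CPM in PRODH TAC and 19.9 ± 2.49 CPM in vector TAC, with 16.8 ± 0.618 CPM in PRODH sham and 18.1 ± 0.580 CPM in vector sham. It fell in PRODH TAC against vector TAC (-0.23 ± 0.08, adjusted p = 0.0237), where Map3k7 rose (0.27 ± 0.09, adjusted p = 0.0105). The receptor-activated Smad2 and Smad3, named here after their values were seen, did not pass in vector TAC against vector sham (0.15 ± 0.10, adjusted p = 0.216, and -0.19 ± 0.14, adjusted p = 0.232). RNA levels of SMADs say nothing of their phosphorylation, which was not measured.

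RNA of proteins that restrain the pathway was mostly higher in vector TAC. Of 11 tested negative regulators, 9 rose and 0 fell in vector TAC against vector sham (median 0.44), and 0 rose and 8 fell in PRODH TAC against vector TAC (median -0.45). Pmepa1, which keeps receptor-activated SMADs from the receptor, averaged 11.8 ± 1.17 CPM in PRODH TAC and 28.0 ± 1.23 CPM in vector TAC, with 10.3 ± 1.19 CPM in PRODH sham and 11.7 ± 0.999 CPM in vector sham. Smad7, the inhibitory SMAD that the pathway itself induces, averaged 6.35 ± 0.295 CPM in PRODH TAC and 11.9 ± 1.06 CPM in vector TAC, with 6.43 ± 0.783 CPM in PRODH sham and 5.49 ± 1.16 CPM in vector sham. The log2 fold changes for PRODH TAC against vector TAC were -1.25 ± 0.09 for Pmepa1 (adjusted p = 1.22e-12) and -0.90 ± 0.11 for Smad7 (adjusted p = 1.79e-07). The corepressors Ski and Tgif1 rose by 0.79 ± 0.08 (adjusted p = 3.11e-09) and 1.80 ± 0.22 (adjusted p = 4.21e-08) in vector TAC against vector sham.

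Of 7 tested co-receptors and related receptors, 4 rose and 1 fell in vector TAC against vector sham (median 0.31), and 2 rose and 3 fell in PRODH TAC against vector TAC (median 0.09). Among all genes, 30.3% were called higher and 26.2% lower in the first comparison, and 18.5% and 24.6% in the second. The members with the smallest p were the endothelial receptors Acvrl1 and Eng. Acvrl1, also called ALK1, had log2 fold changes of -0.85 ± 0.09 for PRODH TAC against vector TAC (adjusted p = 1.60e-08) and 1.40 ± 0.10 for vector TAC against vector sham (adjusted p = 9.32e-13). Eng, endoglin, had changes of -0.58 ± 0.11 (adjusted p = 1.38e-04) and 0.97 ± 0.11 (adjusted p = 9.73e-08). Acvr1, an activin and BMP receptor, rose in vector TAC against vector sham (0.82 ± 0.12, adjusted p = 7.58e-07) and the BMP receptor Bmpr1a fell (-0.34 ± 0.09, adjusted p = 0.00192).

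Among 16 tested genes known to be induced by TGF-beta, 14 rose and 2 fell in vector TAC against vector sham (median 2.80), and 1 rose and 15 fell in PRODH TAC against vector TAC (median -1.91). Ccn2, connective tissue growth factor, averaged 41.6 ± 1.08 CPM in PRODH TAC and 256 ± 4.71 CPM in vector TAC, with 19.9 ± 1.29 CPM in PRODH sham and 28.5 ± 1.37 CPM in vector sham. Its log2 fold change was -2.62 ± 0.07 (adjusted p = 2.35e-23) for PRODH TAC against vector TAC and 3.17 ± 0.07 (adjusted p = 3.48e-25) for vector TAC against vector sham. Lox, which crosslinks collagen, averaged 2.34 ± 0.487 CPM in PRODH TAC and 27.5 ± 0.970 CPM in vector TAC, with 0.734 ± 0.405 CPM in PRODH sham and 1.34 ± 0.345 CPM in vector sham. Postn, the matricellular protein periostin, rose by 4.38 ± 0.12 (adjusted p = 5.15e-20) and the fibrillar collagen Col3a1 by 3.21 ± 0.10 (adjusted p = 1.55e-20) in vector TAC against vector sham. The 2 that fell there were Acta2, smooth muscle actin (-0.85 ± 0.08, adjusted p = 1.66e-10), and the lipase inhibitor Angptl4 (-0.45 ± 0.12, adjusted p = 0.00258), both named after their values were seen. Acta2 was also the 1 that rose in PRODH TAC against vector TAC (0.45 ± 0.08, adjusted p = 3.08e-05).

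**Figure D4:**
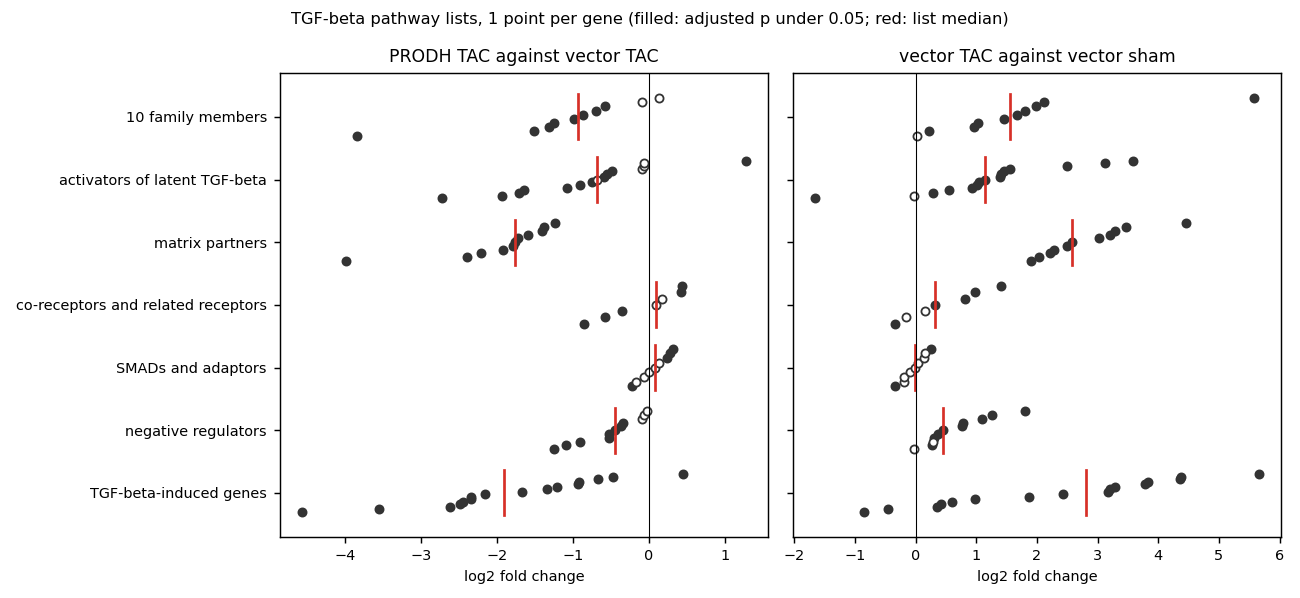
Fitted log2 fold change (horizontal axes) of every tested gene on each pathway list, 1 point per gene, filled where the adjusted p was under 0.05, with the list median as a red bar. Matrix partners lie wholly to the right in vector TAC against vector sham and wholly to the left in PRODH TAC against vector TAC, and SMADs and adaptors stay near 0 in both panels.

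The lists were also counted in the other comparisons. In PRODH TAC against PRODH sham 10 of 15 activators, 9 of 11 matrix partners, 8 of 16 induced genes, 3 of 11 negative regulators, 2 of 7 co-receptors and 0 of 9 SMADs and adaptors rose, and 2 induced genes fell. Over all genes tested, 17.2% were called higher and 17.8% lower in that comparison. In PRODH sham against vector sham 2 activators, 1 matrix partner and 4 induced genes fell and 2 induced genes rose. Among all genes tested, 2.81% were called higher and 2.20% lower between the sham groups. The activators that fell there were Thbs1 (-1.03 ± 0.18, adjusted p = 2.48e-04) and Itgb6 (-0.68 ± 0.10, adjusted p = 1.88e-05), and the matrix partner was Fbn1 (-0.57 ± 0.11, adjusted p = 9.44e-04). No gene of the other lists passed in the sham comparison. The listed genes Tgif2, Mmp9, Acvr1c, Acvr2b, Bmpr1b and Il11 were under the count filter and were not tested.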

How the data were processed

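The authors deposited estimated counts (expected counts, which can be fractions) for 57010 gene models in 16 libraries, with gene lengths that were used here for levels per kilobase. Estimated counts reach fractions where reads are shared between similar sequences: 9538 gene models (16.7%) of the deposited values had one, among them Ltbp3 in 11 libraries and Ltbp1 in 7. RNA was extracted with TRIzol, cleared of DNA with DNase I and made into libraries with a SMARTER mRNA-Seq kit, per the labels' protocols. The aligner, counter, annotation and genome build of the deposited counts were not given in the sources used here. Column names gave the sample of each of the 16 columns, and no library repeated another of its group.

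The counts, rounded to whole numbers, were analysed in R 4.3.3 with edgeR 4.0.16 (limma 3.58.1, data.table version 1.17.8). The filter filterByExpr, with a minimum count of 10 and a minimum total of 15, left 14066 genes. A robust quasi-likelihood model with TMM scaling, the 4 groups and no block was fitted to all libraries, and p-values were adjusted over all genes tested by Benjamini and Hochberg at 0.05. Changes are log2 fold changes with standard errors. CPM were computed here with TMM scaling, and each SD is over the 4 libraries of a group. Alternatives were DESeq2 1.42.0, other scalings, no filter, smaller fits, a block and leaving out libraries. The fit was tested on simulated data.

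The genes, lists and named genes were chosen with earlier results of these data known. Named were all 10 genes, Prodh, up to 4 genes of each pathway list with the smallest p in vector TAC against vector sham and up to 2 in PRODH TAC against vector TAC, and 3 genes of most similar pattern for each of the 10. GENCODE M21 gave overlapping genes, and RefSeq (GRCm38.p6) gave promoters. The sources used here do not say whether counting used strand, so reads of a gene and of any gene on the opposite strand that overlaps it cannot be told apart. Some items are not reported here.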

Additional observations from a re-analysis of the deposited data

Results flagged for a closer look

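Within PRODH sham, Ltbp3 in library 2 (10.2 CPM) lay far from the other 3 libraries (12.6 to 12.8 CPM), with a gap to the nearest of them of 0.933 of the group's range, more than Dixon's test allows for 4 libraries. It was the only one of 40 groups of libraries marked in this way, and chance marks about 1 in 20.

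The TAC change of 8 genes differed between the viruses, by the interaction term of the edgeR fit over all genes. Over all genes tested, this term was called below 0 for 15.8% and above 0 for 10.9%. The log2 difference, AAV9-PRODH minus AAV9-Vector, was -0.83 ± 0.16 for Tgfb1 (SE, adjusted p = 1.74e-04), -1.66 ± 0.17 for Tgfb2 (adjusted p = 1.59e-08) and -0.87 ± 0.16 for Tgfb3 (adjusted p = 1.04e-04). It was -3.22 ± 0.39 for Ltbp2 (adjusted p = 5.46e-07), -1.54 ± 0.15 for Ltbp3 (adjusted p = 4.32e-09) and -1.33 ± 0.15 for Ltbp4 (adjusted p = 1.22e-06). It was -0.62 ± 0.16 for Tgfbr1 (adjusted p = 0.00518) and -1.08 ± 0.13 for Tgfbr2 (adjusted p = 1.49e-07). Both fitted TAC changes of each gene were above 0. Under AAV9-PRODH those of Tgfb1 (adjusted p = 0.203) and Ltbp3 (adjusted p = 0.0521) did not pass. That of Tgfb2 passed narrowly (adjusted p = 0.0441), with overlapping groups. The interaction term was also below 0 and passed for 12 of 12 fibroblast, 10 of 10 myeloid and 6 of 10 endothelial markers, and above 0 for 5 of 10 cardiomyocyte markers. It passed in the other direction for 1 endothelial and 1 cardiomyocyte marker, for 2 of 10 mural markers in each direction, and below 0 for 1 of 4 red cell and platelet and 1 of 4 glial and mesothelial markers. The part of these cell types in the values was not tested.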

How the results depend on the processing

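Of the calls of the 10 genes, 8 in vector TAC against vector sham (all but Ltbp1), the 8 in PRODH TAC against vector TAC and the 8 interaction terms kept their direction and side of the threshold in all alternatives run. With library size alone, PRODH TAC against PRODH sham gave 8186 genes and 10 members called. PRODH sham against vector sham gave 2 members called with library size alone, no filter, only the groups compared, DESeq2 and vector TAC libraries 3 and 4 left out together, the last chosen after seeing the data. Leaving out 1 library at a time gave 7389 to 8094 genes and 8 to 9 members called in vector TAC against vector sham, 5279 to 6235 genes and 8 to 9 members in PRODH TAC against vector TAC, 3916 to 5161 genes and 4 to 8 members in PRODH TAC against PRODH sham, 510 to 796 genes and 0 to 2 members in PRODH sham against vector sham, and 3207 to 4110 genes and 8 to 9 members in the interaction. Signs turned only in values that did not pass in the fit reported above. For Tgfbr3 in vector TAC against vector sham the value was -0.0029 with DESeq2 size factors, -0.0030 with DESeq2, -0.085 without vector TAC libraries 3 and 4, and -0.072 to 0.070 without single libraries. In PRODH TAC against PRODH sham, Ltbp1 and Tgfbr3 were each at 0.33 with library size alone, and ran from -0.066 to 0.0095 and from -0.081 to 0.017 without single libraries. The Tgfbr3 interaction was 0.037 without vector TAC libraries 3 and 4 and ran from -0.12 to 0.024 without single libraries. In PRODH sham against vector sham, Tgfb1 ran from -0.16 to 0.043 and Tgfbr1 from -0.086 to 0.15 without single libraries. Tgfb2 in PRODH TAC against PRODH sham also lost its call with no filter (adjusted p = 0.0761), with DESeq2 (adjusted p = 0.0703) and without vector TAC libraries 3 and 4 (adjusted p = 0.0505). The causes were not tested. Same-numbered libraries deviated together little (3 of 24 pairs with a correlation over 0.1, and 4 of 16 libraries closest to their own number). Those 3 pairs were all of libraries numbered 1. They were vector sham with vector TAC (0.17), vector sham with PRODH sham (0.16) and vector TAC with PRODH sham (0.13). A replicate block gave 7940, 6125, 4956, 723 and 3872 genes in vector TAC against vector sham, PRODH TAC against vector TAC, PRODH TAC against PRODH sham, PRODH sham against vector sham and the interaction. With this block 9, 8, 6, 1 and 8 members were called, and in PRODH TAC against PRODH sham Tgfb2 missed (adjusted p = 0.0517) and Ltbp3 passed (adjusted p = 0.0264). Depth limits Ltbp2 in sham libraries, with 7 to 26 counts each.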
